A study of Mus musculus with 6 samples.

Results

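Smooth muscle actin genes and genes controlled by serum response factor (SRF) were examined in RNA-seq of mouse fibroblasts on their way to pluripotency. The group has 10 genes, chosen by symbol: Acta2, Actg2, Tagln, Cnn1, Myl9, Tpm1, Tpm2, Myh11, Lmod1 and Srf. All 10 were found among the 16982 genes of the count table. The 6 libraries came from C57BL/6 mouse embryonic fibroblasts (MEF) infected with retroviruses that carry OCT4, SOX2, KLF4 and C-MYC, harvested on day 3 of reprogramming, with 3 wild-type (WT) libraries and 3 Rnf20-/- (KO) libraries. RNF20 is the ubiquitin ligase that places monoubiquitin on histone H2B, and the comparison asks which transcripts differ in reprogramming cells without it. The fibroblasts were derived from mid-gestation embryos of T-Rnf20 Flox/Flox mice, in which loxP sites flank exons of Rnf20 and a ubiquitously expressed Cre is switched on by 4-OH tamoxifen. The labels list every library as untreated, and whether the WT cultures received the drug is not stated in the sources used here. Infected cells were replated on growth-arrested MEF feeders during the protocol, so feeder RNA may be part of every library.

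SRF is a transcription factor that binds the CArG box, a short A/T-rich element, in genes of the contractile apparatus and in immediate early genes. On contractile genes it works with coactivators of the myocardin family, which are held in the cytoplasm by monomeric actin and enter the nucleus when actin is assembled into filaments. In smooth muscle and in activated fibroblasts (myofibroblasts) the targets form stress fibres, which are bundles of actin filaments crosslinked by actinins and pulled on by myosin. Fibroblasts in culture make such fibres, and loss of fibroblast identity belongs to the early events of reprogramming.

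The CArG elements are printed here because they are the sequence feature by which SRF is known to bind such genes. RefSeq promoter windows of the GRCm38.p6 assembly were matched for 7 of the 10 members, namely Acta2, Cnn1, Myl9, Tpm1, Tpm2, Lmod1 and Srf. In the 250 bases before the start site, elements were found in 3 of the 7 (Acta2, Myl9 and Srf). A CArG box was counted when all 6 core bases were A or T, and a CArG-like element when at least 5 were. The motif is its own reverse complement, so both strands give the same matches. Of 32851 promoter windows of this length, 482 (1.47%) held a CArG box, 2823 (8.59%) held a CArG box or CArG-like element, and 220 (0.67%) held 2 or more elements. Positions are counted from the RefSeq start site, the base before it being -1, and capitals mark the element. Acta2 has CArG-like elements at -84 to -75 and at -34 to -25, given with their flanks from the minus strand at chr19:34255438-34255467 and chr19:34255388-34255417. Both lie within an exon of the GENCODE annotation, which starts Acta2 further upstream than RefSeq does.
Acta2, distal: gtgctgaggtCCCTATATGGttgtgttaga
Acta2, proximal: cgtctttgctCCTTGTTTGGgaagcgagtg
Myl9 has a CArG box at -161 to -152 and a CArG-like element at -99 to -90, on the plus strand at chr2:156775273-156775404.
Myl9: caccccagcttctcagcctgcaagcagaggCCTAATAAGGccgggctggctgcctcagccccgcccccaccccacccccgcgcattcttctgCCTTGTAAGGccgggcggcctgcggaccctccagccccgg
Srf, whose own gene is a known SRF target, has CArG boxes at -82 to -73 and at -62 to -53, on the minus strand at chr17:46556185-46556274.
Srf: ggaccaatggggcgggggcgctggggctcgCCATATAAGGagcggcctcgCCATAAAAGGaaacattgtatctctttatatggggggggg
A match is a description of letters, and SRF binding was not measured in these libraries. These 3 genes did not move together. As given below, Acta2 was higher in the knockout, Myl9 overlapped between genotypes and Srf lay slightly lower.

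Levels are CPM (read counts scaled to a common library total) on library sizes scaled by TMM, a normalization that assumes most genes do not change. WT libraries held 20545442 to 20672939 counts and KO libraries 21172325 to 21746898, so that a floor of 3 counts corresponds to 0.142 to 0.143 CPM. Rnf20 itself fell from 107 ± 0.781 CPM in WT to 17.9 ± 1.29 CPM in KO (SD, n = 3 each), with every KO library below every WT library (log2 fold change -2.57, SE 0.0812, edgeR quasi-likelihood adjusted p = 0.000163, and log2 -2.51 without KO replicate 3, adjusted p = 3.51e-08). KO replicate 3 stood apart from the other KO libraries. Its chi-square per gene against KO replicates 1 and 2 was 92.4 and 101, compared with 8.57 between those 2 and 6.04 to 8.92 among the WT libraries. Summed counts of the Y-linked genes Ddx3y, Eif2s3y, Kdm5d and Uty were 4774, 5092 and 4826 in WT, but 0, 5608 and 1 in KO replicates 1, 2 and 3. The KO libraries are thus not matched in Y-linked transcripts, and no other marker of sex was read. Fold changes of the members and of the genes called at 0.01, and the counts at 0.01, are therefore also given without KO replicate 3, and levels are given by library. The labels do not say that replicates came from separate cultures or embryos, so p-values measure only the spread between these libraries. Among WT libraries that spread may be technical. Among KO libraries it is not only technical, since KO replicate 2 differs in Y-linked counts from KO replicates 1 and 3.

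Smooth muscle α-actin and α-tropomyosin transcripts were the members that rose in the knockout at an adjusted p under 0.01. Of the 10 members, all of which were tested, 2 were higher at an adjusted p under 0.01 (Acta2 and Tpm1), the FDR threshold of the study. Among all 13386 genes tested 4.98% were higher and 4.89% lower at this threshold. No member was lower by the edgeR test. At an unadjusted p under 0.05 1 member was lower (Srf), and 0 were lower by DESeq2. The share of all genes at that unadjusted p was not counted, and it exceeds the 16.6% lower at an adjusted p under 0.05. DESeq2 called 3 members higher (Tpm2 in addition), in a fit that called 13.8% of all genes higher and 13.1% lower. At an adjusted p under 0.05 5 members were higher (Acta2, Tpm1, Tpm2, Lmod1 and Actg2) and 0 lower, beside 16.4% and 16.6% of all genes. When the study's minimum of a 2-fold change and of 1 FPKM was added, with the FPKM read as the mean of a genotype, Acta2 was the 1 member called higher and 0 were called lower, against 1.5% and 2.08% of all genes. The log2 fold change was positive in 9 of 10 members and its median was 0.41, beside -0.00032 over all genes tested. In bulk RNA, more transcript per cell and more cells of a kind that makes it cannot be told apart.

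**Figure D1:**
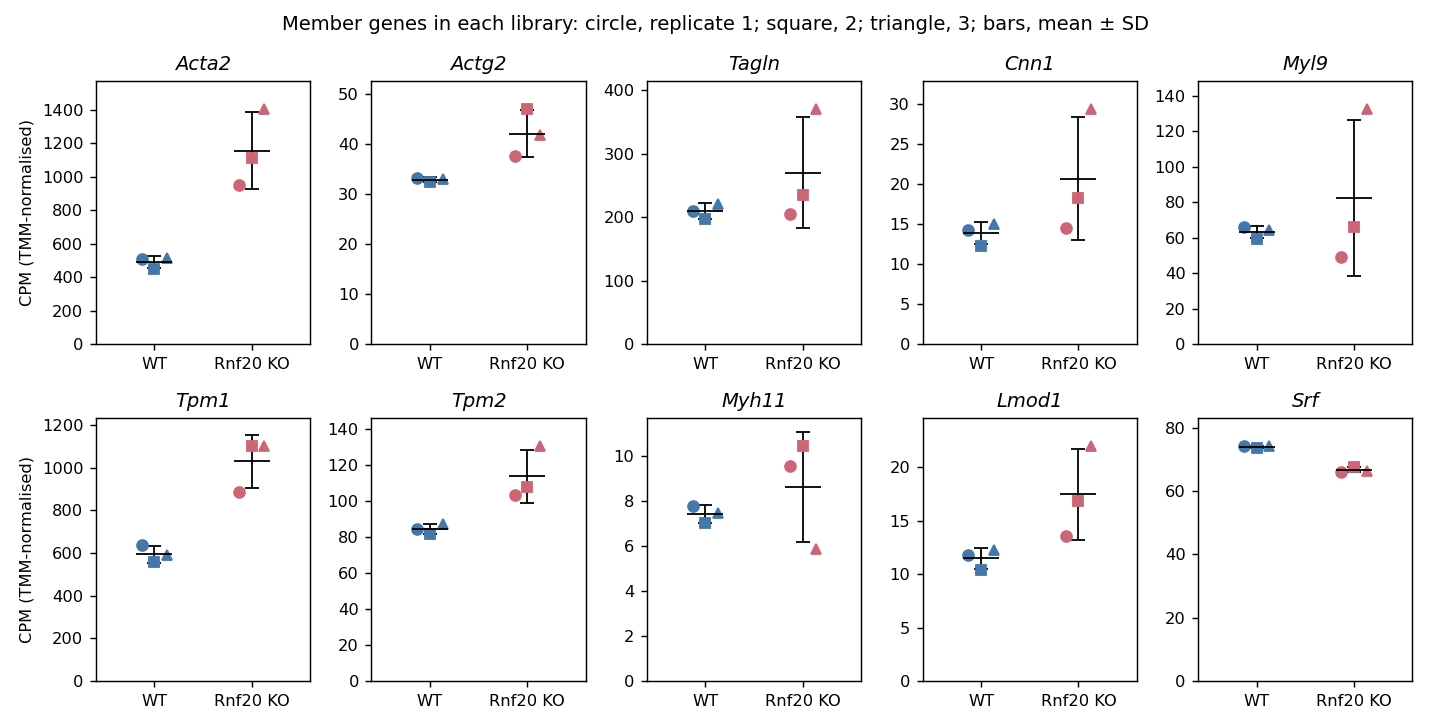
CPM of each member gene (y axes from 0) in the 3 WT and 3 Rnf20 KO libraries, with the mean and SD as bars. All 3 KO libraries lie above all WT libraries for Acta2, Actg2, Tpm1, Tpm2 and Lmod1 and below them for Srf, and KO replicate 3 (triangle) is the highest KO library in 7 of the 10 genes.

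Acta2 encodes smooth muscle α-actin, the actin of vascular smooth muscle and the standard marker of myofibroblasts (ENSMUSG00000035783, GRCm38 chromosome 19, 34241090 to 34255590, minus strand). Its level was 510, 451 and 516 CPM in WT replicates 1, 2 and 3 and 951, 1111 and 1403 CPM in KO replicates 1, 2 and 3. The lowest KO library thus lay well above the highest WT library, and the KO libraries were also more spread than the WT libraries. The means were 492 ± 35.6 and 1155 ± 229 CPM (SD, n = 3 each), a 2.35-fold rise (log2 1.23, SE 0.151, edgeR adjusted p = 0.00394). Of all genes tested, 4.25% had a larger log2 fold change. Without KO replicate 3, in which Acta2 was highest, the log2 fold change was 1.07 (adjusted p = 4.66e-06). Over all 6 fits that leave out a library it ranged from 1.07 to 1.36, but the adjusted p rose above 0.01 without WT replicate 1 (0.0249), WT replicate 2 (0.0299), WT replicate 3 (0.0311) or KO replicate 2 (0.0141). In those 4 fits 1 to 88 genes in all passed that threshold. Adding to the model whether a library had Y-linked counts, which KO replicates 1 and 3 lack, gave a log2 fold change of 1.17 with an adjusted p of 0.0662, and a replicate block gave 1.21 with 0.0229, so both ended the call. Those fits called 1 and 0 genes in all.

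Actg2 encodes smooth muscle γ-actin, the actin of gut and bladder muscle (ENSMUSG00000059430, chromosome 6, 83512905 to 83536265, minus strand). It was measured at 33.2, 32.3 and 32.9 CPM in WT and 37.5, 46.9 and 41.7 CPM in KO. The genotypes did not overlap, but the rise was smaller than that of Acta2, at 1.28-fold (log2 0.36, SE 0.0976, edgeR adjusted p = 0.0330). Without KO replicate 3 the log2 fold change was also 0.36, and the adjusted p was 0.00892.

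The other actin genes gave a scale for these changes. Actb and Actg1, which encode the cytoplasmic β- and γ-actins of every cell, rose from 2261 ± 49.3 to 2823 ± 127 CPM and from 2206 ± 125 to 2861 ± 67.2 CPM (log2 0.32 and 0.38, edgeR adjusted p = 0.0273 and 0.0192). All 4 actin genes tested, of which Acta2 and Actg2 are members, were thus higher at an adjusted p under 0.05, beside 16.4% of all genes. Acta2 was the 1 that passed 0.01, beside 4.98% of all genes higher. When KO replicate 3 was left out, all 4 passed 0.01, in a fit that called 16.4% of all genes higher. Actc1, the cardiac actin, had 8, 23 and 15 counts in WT and 2, 4 and 4 in KO, too few for the filter (adjusted p = 0.0419 without it), and Acta1, the skeletal actin, was not analysed here.

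Per length, in the FPKM (fragments scaled by transcript length and library size) that the authors deposited, Acta2 made up 9.86%, 9.27% and 10.2% of the FPKM of these 4 actin genes in WT and 14.5%, 16.0% and 18.9% in KO. The mean share was 9.78% ± 0.464 in WT and 16.5% ± 2.24 in KO (SD, n = 3 each), with no overlap, while that of Actb went from 47.4% ± 1.33 to 42.7% ± 0.969. Actg2 stayed near 1% of the actin FPKM, with means of 0.928% in WT and 0.854% in KO. The summed actin FPKM was also higher in KO, at 3942 to 4410 against 2933 to 3190 in WT. The summed actin mRNA was thus larger in FPKM, and a larger part of it was the smooth muscle α isoform. Actin protein was not measured.

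**Figure D2:**
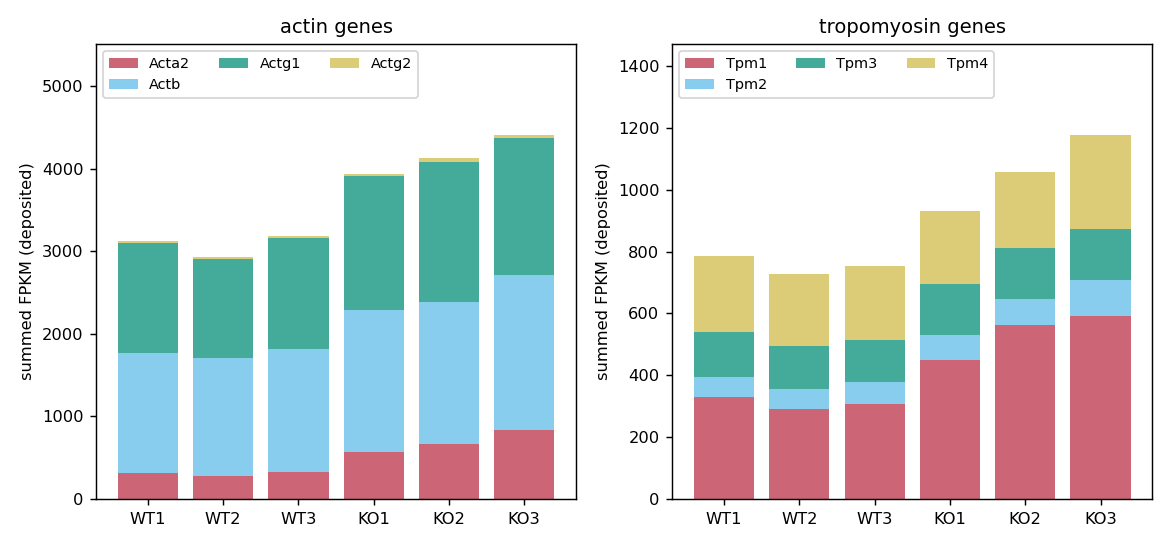
Deposited FPKM of the actin genes (left) and tropomyosin genes (right), stacked for each of the 3 WT and 3 KO libraries on a linear axis from 0. The Acta2 layer is thicker in each KO library than in any WT library, and so is the Tpm1 layer.

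Tropomyosins are coiled-coil proteins that lie along the actin filament and set which myosins and binding proteins reach it. Tpm1 (α-tropomyosin, ENSMUSG00000032366, chromosome 9, 67022590 to 67049406, minus strand) was the second member to pass the test. It was measured at 637, 557 and 589 CPM in WT and 886, 1102 and 1102 CPM in KO, without overlap. Its mean rose 1.73-fold, from 595 ± 40.2 to 1030.0 ± 125 CPM (log2 0.79, SE 0.112, edgeR adjusted p = 0.00553). KO replicates 2 and 3 were level for this gene, and without KO replicate 3 the log2 fold change was 0.74 (adjusted p = 9.61e-05). The adjusted p passed 0.01 without KO replicate 1 or 3 and lay between 0.0188 and 0.0392 without KO replicate 2 or any WT library. With the Y-linked term the log2 fold change of Tpm1 was 0.89 and the adjusted p 0.0639, and with the replicate block they were 0.79 and 0.0274, so neither fit kept the call. Counts were made per gene, so the smooth muscle and cytoplasmic isoforms of Tpm1, for which 21 transcripts are annotated, cannot be told apart.

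Tpm2 (β-tropomyosin, ENSMUSG00000028464, chromosome 4, 43514711 to 43523765, minus strand) was also without overlap, at 84.7, 81.9 and 87.5 CPM in WT and 103, 108 and 131 CPM in KO (1.35-fold, log2 0.43, SE 0.103, edgeR adjusted p = 0.0226). Without KO replicate 3 the log2 fold change was 0.32, and the adjusted p was 0.00130. Tpm3 and Tpm4, which encode mostly non-muscle tropomyosins, had log2 fold changes of 0.22 (adjusted p = 0.0372) and 0.12 (adjusted p = 0.438, and log2 -0.0088 without KO replicate 3). Tpm1 made up 41.0% ± 0.963 of the FPKM of the 4 tropomyosin genes in WT and 50.6% ± 2.51 in KO, without overlap. The share of Tpm4 went from 31.7% ± 0.227 to 24.8% ± 1.35, and that of Tpm2 from 8.74% ± 0.542 to 8.81% ± 0.898.

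Tagln, Cnn1 and Lmod1 encode further proteins of the thin filament. Tagln (SM22α, an early smooth muscle protein that bundles actin; ENSMUSG00000032085, chromosome 9, 45929619 to 45936058, minus strand) is among the most cited SRF targets. Its level was 211, 197 and 221 CPM in WT and 205, 236 and 370 CPM in KO. KO replicate 1 lay inside the WT range and KO replicate 3 far above it, so the log2 fold change of 0.37 (SE 0.213) did not pass the test (edgeR adjusted p = 0.220). It was 0.074 without KO replicate 3 (adjusted p = 0.421). Exons of Tagln overlap exons of Gm48529 and Pcsk7 on the opposite strand. Since the strand setting of the counting is not given in the sources used here, some reads may belong to those genes.

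Cnn1 (calponin 1, which binds actin and slows the myosin motor; ENSMUSG00000001349, chromosome 9, 22099216 to 22109630, plus strand) behaved like Tagln, at 14.3, 12.3 and 15.0 CPM in WT and 14.5, 18.2 and 29.3 CPM in KO. The genotypes overlapped, and the log2 fold change was 0.57 (SE 0.258, edgeR adjusted p = 0.129), or 0.24 without KO replicate 3 (adjusted p = 0.156). In KO replicate 3 Cnn1 was 1.79 times the mean of the other KO libraries and Tagln 1.68 times. Of the 3 calponin genes Cnn1 was the least abundant, with 2.59% of their FPKM in WT and 2.84% in KO.

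Lmod1 (leiomodin 1, which nucleates actin filaments in smooth muscle; ENSMUSG00000048096, chromosome 1, 135324807 to 135368065, plus strand) was at 11.8, 10.4 and 12.3 CPM in WT and 13.6, 16.8 and 22.0 CPM in KO. There was no overlap, and the 1.52-fold difference (log2 0.60, SE 0.187) had an edgeR adjusted p of 0.0469. Without KO replicate 3 the log2 fold change was 0.41 (adjusted p = 0.0234).

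Myl9 and Myh11 encode subunits of the myosin motor that pulls on these filaments. Myl9 (a regulatory myosin light chain, the chain whose phosphorylation triggers contraction; ENSMUSG00000067818, chromosome 2, 156775420 to 156781658, plus strand) was at 66.0, 59.4 and 64.5 CPM in WT and 49.3, 66.2 and 133 CPM in KO. The KO libraries thus lay below, just above and far above the WT range, and KO replicate 3 was 2.30 times the mean of the other KO libraries. The log2 fold change of 0.38 (SE 0.339, edgeR adjusted p = 0.406) became -0.13 without KO replicate 3 (adjusted p = 0.345). No direction can be given for Myl9, the member with both a CArG box and a CArG-like element before its start.

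Myh11 (smooth muscle myosin heavy chain, the marker most restricted to mature smooth muscle; ENSMUSG00000018830, chromosome 16, 14194535 to 14291372, minus strand) was the least abundant member per length. Its counts were 164, 148 and 157 in WT and 200, 220 and 123 in KO, or 7.80, 7.02, 7.45, 9.55, 10.4 and 5.86 CPM. KO replicate 3 was the lowest KO library for this gene, at 0.586 times the mean of the others, whereas it was the highest for Tagln, Cnn1 and Myl9. The log2 fold change was 0.21 (SE 0.226, edgeR adjusted p = 0.488), and 0.43 without KO replicate 3 (adjusted p = 0.0228).

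Srf itself (ENSMUSG00000015605, chromosome 17, 46548329 to 46556175, minus strand) was the 1 member that lay lower in every KO library. It was at 74.2, 73.5 and 74.3 CPM in WT and 66.2, 67.7 and 66.4 CPM in KO, with very little spread in either genotype. The ratio of 0.902 (log2 -0.15, SE 0.0612) had an edgeR adjusted p of 0.105, and the log2 fold change was -0.14 without KO replicate 3 (adjusted p = 0.0619). The targets that rose were therefore not accompanied by a higher level of Srf mRNA. Protein and activity were not measured.

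**Figure D3:**
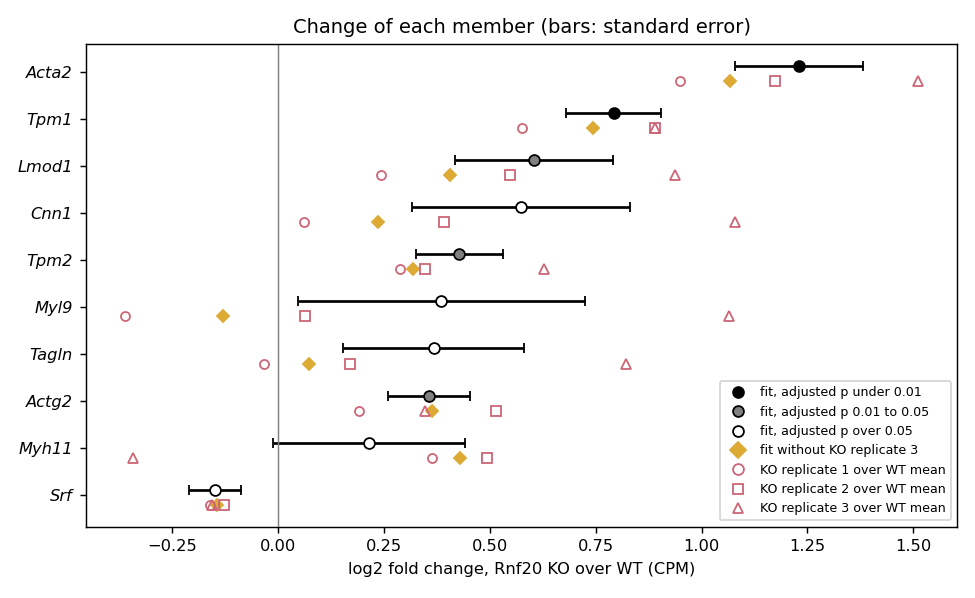
Log2 fold change of each member, Rnf20 KO over WT (x axis), with filled or open circles for the fit (bars, standard error), diamonds for the fit without KO replicate 3 and open red symbols for each KO library over the WT mean. Acta2 and Tpm1 are the black circles (adjusted p under 0.01), and the diamond of Myl9 lies on the other side of 0 from its circle.

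Over all members, 5 had every KO library above every WT library, 1 had every KO library below, and 4 overlapped (Tagln, Cnn1, Myl9 and Myh11), beside 26.6% of all genes above and 28.2% below. The members' median log2 difference from the WT mean was 0.22 in KO replicate 1, 0.44 in KO replicate 2 and 0.86 in KO replicate 3. All 10 members were higher in KO replicate 2 than in KO replicate 1, as were 49.6% of all genes tested. KO replicate 3 was the highest KO library in 7 members, compared with 43.8% of all genes. Without it, 4 members were higher at an adjusted p under 0.01 (Acta2, Tpm1, Tpm2 and Actg2) and 0 lower, and in that fit 16.4% of all 13529 genes tested were higher and 16.7% lower. The median of the members was then 0.34, beside -0.0068 over all genes.

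The order of the levels, compared per length in FPKM, was led by the same genes in both genotypes. In WT Tpm1 (310 ± 19.7 FPKM, SD, n = 3) and Acta2 (302 ± 27.1) came first, with overlapping ranges. They were followed by Tagln (141 ± 8.96), Tpm2 (66.0 ± 3.93), Myl9 (56.0 ± 4.52), Actg2 (28.6 ± 0.952), Srf (17.7 ± 0.219), Cnn1 (8.39 ± 1.17), Lmod1 (2.29 ± 0.196) and Myh11 (0.800 ± 0.0421), each separate from its neighbours. In KO Acta2 came first (689 ± 134 FPKM), above Tpm1 (535 ± 74.8) in 3 of 3 libraries although their ranges overlapped. Ranges of Tpm2 and Myl9, and of Srf and Cnn1, also overlapped in KO. Acta2 moved from rank 233 to rank 131 among the 12633 genes with FPKM values, and Tpm1 from rank 228 to rank 158. The genes of thin filaments shared with stress fibres were thus abundant, and Lmod1 and Myh11, which are most typical of mature muscle, were near the bottom of the order.

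Genes outside the group were read from lists chosen by function, and each count is to be read against the shares of all genes, namely 4.98% higher and 4.89% lower at 0.01, 16.4% and 16.6% at 0.05, 16.4% and 16.7% at 0.01 without KO replicate 3, and 13.8% and 13.1% at 0.01 by DESeq2. At an unadjusted p under 0.05 the shares of all genes were not counted, and they exceed those at an adjusted p under 0.05. Of 26 further contractile genes tested, 2 were higher at an adjusted p under 0.01, 9 were higher and 4 lower under 0.05, and 13 passed neither, with a median log2 fold change of 0.24. The 4 lower are a share close to that of all genes. Both that passed 0.01 bind actin filaments. Cald1 (caldesmon, which restrains myosin on the filament) rose from 908 ± 14.5 to 1749 ± 295 CPM (log2 0.95, edgeR adjusted p = 0.00494, and log2 0.80 without KO replicate 3) and Synpo2 (synaptopodin 2) from 2.79 ± 0.415 to 7.36 ± 1.48 CPM (log2 1.40, adjusted p = 0.00721, and log2 1.23 without that library). On the other side were Pdlim3, a Z-disc adaptor, and Smtn (smoothelin, a protein of contractile smooth muscle). Pdlim3 had few counts, 21, 38 and 27 in WT and 5, 11 and 11 in KO (log2 -1.65, adjusted p = 0.0268, and log2 -1.82 with 0.0112 without KO replicate 3). Over all alternatives its log2 fold change ran from -1.84 to -0.57. Smtn was at 73.7, 67.4 and 76.0 CPM in WT and 42.8, 49.0 and 23.4 CPM in KO (log2 -0.91, adjusted p = 0.0341, and log2 -0.65 with 0.000115 without KO replicate 3). Mylk, the kinase that phosphorylates Myl9 and a gene picked after its values were seen, also lay lower in each KO library (log2 -0.43 with and without KO replicate 3, adjusted p = 0.0251 and 0.00787). The myosin genes of this list, also picked after their values were seen, went both ways. Myh9 and Myl12a were higher (log2 0.51 and 0.55, edgeR adjusted p = 0.0383 and 0.0258), and Myl12b was lower (log2 -0.32, adjusted p = 0.0266). Myh10 and Myl6 did not pass 0.05 (log2 -0.44 and -0.016, adjusted p = 0.0967 and 0.934). In the fit without KO replicate 3, 11 genes of this contractile list were higher and 4 lower at 0.01. Lmod2 and Lmod3, the leiomodins of striated muscle, had at most 3 counts in each library.

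Adhesion and cytoskeleton genes, which anchor stress fibres to the matrix, were counted over 11 members, of which 1 was higher at 0.01, 6 were higher at 0.05 and 0 lower (also 0 lower at an unadjusted p under 0.05 by edgeR and 0 at 0.01 by DESeq2), with a median of 0.31. Actn1 (α-actinin 1, the crosslinker of stress fibres) rose from 359 ± 25.0 to 651 ± 112 CPM (log2 0.86, edgeR adjusted p = 0.00679, and log2 0.71 without KO replicate 3). Vcl (vinculin) was at 516, 534 and 268 CPM in KO against 298 to 309 CPM in WT, so KO replicate 3 lay on the other side of WT from the other KO libraries (log2 0.52, adjusted p = 0.144, and log2 0.78 with 2.12e-06 without it). Vasp and Lima1 had the lowest values of the list, with log2 fold changes of -0.12 (adjusted p = 0.2) and -0.033 (adjusted p = 0.818). In the fit without KO replicate 3, 7 were higher at 0.01.

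Among 13 genes tested of the SRF cofactors and actin-signalling genes, 1 was higher and 1 lower at 0.01, and 4 were higher and 2 lower at 0.05 (median 0.18). Rock2, a kinase that promotes actin filaments and myosin activity, rose from 253 ± 5.55 to 381 ± 25.2 CPM (log2 0.59, edgeR adjusted p = 0.00421, and log2 0.56 without KO replicate 3). Foxo4, a forkhead factor known to repress smooth muscle genes through myocardin, fell from 54.6 ± 0.0912 to 31.4 ± 3.05 CPM (log2 -0.80, adjusted p = 0.00349, and log2 -0.82 without that library). Hexim1, an inhibitor of transcription elongation, had a log2 fold change of -0.40 (adjusted p = 0.0299). The actin-sensing coactivators Mkl1 and Mkl2, named here after their values were seen, had log2 fold changes of 0.21 (adjusted p = 0.0413) and 0.18 (adjusted p = 0.0871). Myocd, the coactivator restricted to muscle, had at most 8 counts in a library, too few for the filter. In the fit without KO replicate 3, 3 were higher and 2 lower at 0.01.

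The immediate early genes, the other class of SRF targets, which use ternary complex factors in place of myocardin family coactivators, had a median log2 fold change of -0.30 over 10 genes. By the edgeR test 0 passed 0.01 in either direction. At an adjusted p under 0.05 1 was lower and 2 higher, and at an unadjusted p under 0.05 2 were lower and 3 higher. By DESeq2 1 was lower and 2 higher at 0.01, a share like that of all genes. Egr1 was at 361, 422 and 393 CPM in WT and 288, 215 and 146 CPM in KO (log2 -0.86, edgeR adjusted p = 0.0311, and log2 -0.64 with 0.00102 without KO replicate 3). Egr3 was the other gene at the low end (log2 -0.43, adjusted p = 0.261). Ier3 and Junb were at the high end, with log2 fold changes of 1.63 (adjusted p = 0.0451) and 0.68 (adjusted p = 0.0354). In KO replicate 3 Ier3 reached 98.3 CPM against 31.6 and 26.9 CPM in the other KO libraries, and without that library its log2 fold change was 0.79 and that of Junb 0.44. The median was -0.067 without KO replicate 3, and 3 genes were higher and 1 lower at 0.01.

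The calls at 0.01 named above for Cald1, Synpo2, Actn1, Rock2 and Foxo4 kept their direction in each of the 6 fits that leave out a library. Their adjusted p was under 0.01 in 1 of the 6, that without KO replicate 3, and reached 0.0372 for Cald1, 0.0388 for Synpo2, 0.0412 for Actn1, 0.0348 for Rock2 and 0.0303 for Foxo4 in the others. Over all alternatives of the processing it reached 0.0771 for Cald1, 0.0929 for Synpo2, 0.0980 for Actn1, 0.0741 for Rock2 and 0.0447 for Foxo4.

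**Figure D4:**
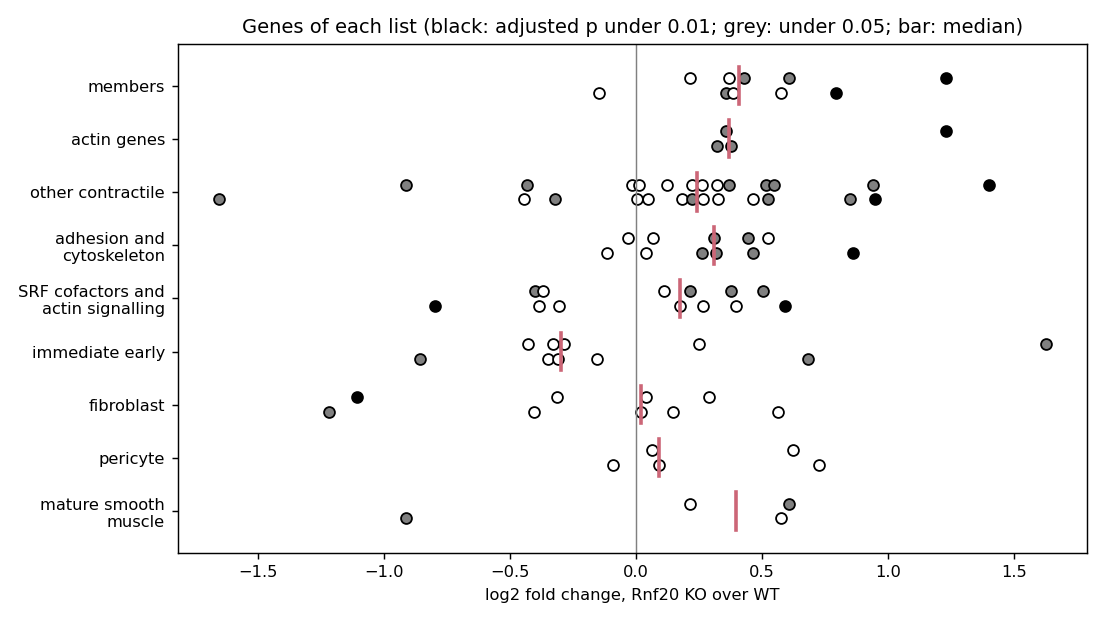
Log2 fold change of Rnf20 KO over WT (x axis) for each tested gene of the members and of 8 lists, with a red bar at each list's median. Black circles mark an adjusted p under 0.01 and grey circles one under 0.05. Foxo4 and Thy1 are the black circles to the left of 0.

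Markers of other cell types were read beside the members. The fibroblast label holds in both genotypes, since Col1a1, Col1a2 and Col3a1 were among the abundant transcripts, and the summed level of the 9 fibroblast markers was 30098 to 32878 CPM in WT and 21561 to 39622 CPM in KO (lowest in KO replicate 3), with a median log2 fold change of 0.018. Of the 9, 1 was lower at 0.01 and 2 were lower at 0.05, and without KO replicate 3 2 were lower and 1 higher at 0.01 with a median of 0.012. Thy1, a surface marker of fibroblasts, fell from 180 ± 19.95 to 83.7 ± 5.19 CPM (log2 -1.11, edgeR adjusted p = 0.00251, and log2 -1.06 without KO replicate 3). Pdgfra had a log2 fold change of -1.22 (adjusted p = 0.0185), and of -0.95 without that library (adjusted p = 2.02e-05). Fn1 (fibronectin) and Vim (vimentin) were at the other end with log2 fold changes of 0.56 (adjusted p = 0.0697, and log2 0.74 with 0.000212 without KO replicate 3) and 0.29 (adjusted p = 0.0577). Thy1 kept its direction in every leave-one-out fit, with an adjusted p up to 0.0273, and up to 0.0535 over all alternatives of the processing.

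Mature smooth muscle was marked weakly. Of its 7 markers, Myocd, Kcnmb1 and Pln had at most 8, 13 and 5 counts in a library, too few for the filter. In the edgeR fit without the filter their log2 fold changes were -0.36, 3.02 and -0.46 (adjusted p = 0.717, 0.0842 and 0.817). Kcnmb1 had 0, 1 and 1 counts in WT and 3, 3 and 13 in KO. Of the others, Cnn1, Lmod1 and Myh11 are members. All 7 markers together gave a summed level of 97.4 to 111 CPM in WT and 81.0 to 94.9 CPM in KO, Smtn making up the largest part in WT. The lower sum in KO came from Smtn. Cnn1, Lmod1 and Myh11 together summed to 33.8, 29.7 and 34.8 CPM in WT and to 37.6, 45.4 and 57.2 CPM in KO, higher in every KO library, and the median log2 fold change of the 4 tested markers was 0.39 (0.32 without KO replicate 3). Of the 7 pericyte markers, Kcnj8 and Abcc9 had at most 5 and 13 counts, and the sum of the list was 502 to 530 CPM in WT and 400 to 720 CPM in KO (lowest in KO replicate 3). Among the 5 tested, 0 passed at an unadjusted p under 0.05 by edgeR or at 0.01 by DESeq2, and their log2 fold changes ran from -0.090 for Mcam (adjusted p = 0.765) and 0.061 for Cspg4 (adjusted p = 0.889) to 0.62 for Notch3 (adjusted p = 0.351) and 0.73 for Rgs5 (adjusted p = 0.300). Notch3 was at 216, 223 and 56.1 CPM in KO replicates 1, 2 and 3 and 80.6 to 127 CPM in WT, and without KO replicate 3 its log2 fold change was 1.03 (adjusted p = 0.000234).

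Skeletal and cardiac muscle markers summed to 7.08 to 12.4 CPM in WT and 6.14 to 10.3 CPM in KO, and Ckm, Myod1, Myog and Myh6 had at most 3 counts in each library. Ttn (titin) was higher at 0.01, at 0.253 ± 0.110 CPM in WT and 1.43 ± 0.248 CPM in KO (log2 2.47, edgeR adjusted p = 0.00738, and up to 0.0422 when a library was left out, with log2 2.52 without KO replicate 3), a level of few counts. Over all alternatives of the processing the adjusted p of Ttn reached 0.844, and its log2 fold change ran from 0.021 to 2.87. Tnni1, Tnnt3 and Tnnt2 had log2 fold changes of 0.77, 0.088 and -0.73 (adjusted p = 0.421, 0.924 and 0.0856). Endothelial markers summed to 48.5 to 59.1 CPM in WT and 33.6 to 67.3 CPM in KO, nearly all of it Tek (log2 -0.095), a gene that other cells also express, with Kdr at 0.35. The more specific markers were at few counts and below the filter. Pecam1 had 2, 1 and 0 counts in WT and 11, 10 and 11 in KO (adjusted p = 0.0259 to 0.0657 over the 5 alternatives that tested it), Vwf had 5, 4 and 4 in WT and 8, 16 and 28 in KO (adjusted p = 0.0215 to 0.121 over 5), and Cdh5 had at most 5. Without Tek the endothelial markers summed to 0.902 to 1.85 CPM in WT and 2.37 to 2.86 CPM in KO, so they were higher in every KO library at a low level. Macrophage markers summed to 15.1 to 25.7 CPM in WT and to 19.95, 15.7 and 57.6 CPM in KO replicates 1, 2 and 3. The last value was mostly Adgre1, at 31.9 CPM (log2 2.07, adjusted p = 0.142, and log2 0.12 without that library), and Csf1r, Ptprc and Cd68 had log2 fold changes of 0.29, 0.28 and -0.23. Of the genes tested in these 2 lists, none was at an unadjusted p under 0.05 by edgeR or at 0.01 by DESeq2. The part of these cell types in the members' differences was not tested. In KO replicate 2, the 1 KO library with Y-linked counts, Acta2 and Tpm1 were at 1111 and 1102 CPM, against WT ranges of 451 to 516 and 557 to 637 CPM, a comparison of 1 library that has no test, and in the fit with the Y-linked term neither gene passed 0.01.

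The members were also set beside Acta2 by the likeness of their levels. Over the 6 libraries Pearson's r of log2 CPM with Acta2 was 0.983 for Tpm1, 0.976 for Tpm2, 0.937 for Lmod1, 0.898 for Actg2, 0.823 for Cnn1, 0.729 for Tagln, 0.532 for Myl9, 0.108 for Myh11 and -0.942 for Srf. Tpm1, Tpm2 and Lmod1 thus had the highest r with Acta2 among the members, and the r of Myl9 and Myh11 was lower. Genotype means were not removed, so a steady difference between the genotypes raises r by itself. Outside the members, the 5 genes of highest r among 12606 genes with a mean over 1 CPM were Spp1 (osteopontin, 0.999), Sparc (a matrix glycoprotein, 0.998), Arhgap1 (a GTPase-activating protein, 0.998), Amotl2 (a junction protein that binds actin, 0.998) and Trpv2 (a cation channel, 0.998). Their log2 fold changes were 1.15, 0.70, 0.33, 1.09 and 0.77. These values are descriptions over 6 libraries in 2 genotypes, and 1919 genes (15.2%) had an r over 0.9.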

How the data were processed

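RNA-seq of 3 WT and 3 Rnf20 KO libraries (day 3 of reprogramming) was analysed, with genotype and replicate number from the sample titles. The authors prepared strand-specific libraries from poly(A) RNA (TruSeq Stranded mRNA kit) and aligned paired-end reads to GRCm38/mm10. The submitters' processing notes name HISAT2 2.1.0 and Cufflinks 2.1.1. The authors deposited raw counts per gene (whole numbers, not normalized) for 16982 genes, and FPKM from Cufflinks for 12633 genes. The counting program, its strand setting and its annotation are not given in the sources used here. Columns of the authors' own comparison (log2 fold change and FDR) were not used. Depth was 20545442 to 21746898 counts per library.

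Counts were normalized by TMM and filtered with filterByExpr (13386 genes kept) in edgeR 4.0.16 (R 4.3.3), and KO was compared with WT over all 6 libraries by the quasi-likelihood test without covariates, with Benjamini-Hochberg adjustment over all genes tested. The SE of a log2 fold change was its size divided by the square root of F. Log2 CPM for correlations used a pseudocount of 2 counts, and FPKM alternatives in limma 3.58.1 used log2(FPKM + 1), on which scale changes of low genes are understated. DESeq2 1.42.0, other scalings, no filter, a replicate block, a term for Y-linked counts and leaving out each library were the alternatives. The test script was tested on simulated data. Gene positions and exon overlaps were taken from GENCODE M21 (GRCm38), matched by Ensembl identifier. No stretch of 75 bases of a member's transcripts was shared with another gene.

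The genes named are the 10 members and Rnf20, the 2 lowest and 2 highest tested genes by log2 fold change of each list, list genes at 3 counts or less in every library, and the 5 genes most correlated with Acta2. Others are named as examples or as marked, and 1 gene that the rule names is not reported here. The members and lists were chosen with earlier results of these data known, so no test over a list was made and p-values are those of single genes. Some genes are in several lists, and the members Acta2, Actg2, Cnn1, Lmod1 and Myh11 are also in the actin or smooth muscle lists.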

Additional observations from a re-analysis of the deposited data

How the results depend on the processing

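No member was lower in the knockout at an adjusted p under 0.01 under any alternative run. The count of members higher was 2 with RLE size factors, with library size only, without the filter and with limma on FPKM. Those fits called 678, 510, 588 and 421 genes higher in all. It was 3 with DESeq2 (Tpm2 added), which called 13.8% of all genes higher. With library size only, all genes split into 510 higher and 858 lower, compared with 667 and 655. The count was 5 at an adjusted p under 0.05 and 1 under the study's rule with a fold and FPKM minimum, beside 16.4% and 1.5% of all genes. With a term for libraries with or without Y-linked counts it was 0, as 1 gene of all passed in that fit, and the adjusted p was 0.0662 for Acta2 and 0.0639 for Tpm1. Leaving out 1 library gave 0 to 4. The count was 0 without WT replicate 1, 2 or 3 or KO replicate 2, in fits that called 4, 2, 1 and 88 genes in all. It was 2 without KO replicate 1, where 149 genes in all passed. It was 4 without KO replicate 3, where 4485 genes in all passed (16.4% of those tested higher and 16.7% lower).

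With a replicate block the count was 0, and no gene of the 13386 passed. Same-numbered WT and KO libraries did not deviate together (correlations of -0.066, 0.037 and 0.011), and 2 of 6 libraries correlated best with their own number. These values give no sign of pairing by number. With 3 libraries per genotype and KO replicate 3 apart, they cannot decide whether the numbers pair the libraries.

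The median log2 fold change of the members stayed between 0.34 and 0.60. Of 130 values (10 members under 13 alternatives), 114 kept direction and side of the threshold, 12 (Acta2 and Tpm1) lost the call, 3 gained it, and 1 changed sign, namely Myl9, which ran from -0.13 without KO replicate 3 to 0.66 without KO replicate 1. Every member had at least 123 counts in each library, and the 3 libraries per genotype, with KO replicate 3 apart, limit what the test can show.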
